A study of Drosophila melanogaster with 24 samples.

Results

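The ecdysone receptor and the regulators of its early response were followed in wing discs of the dmyc and cd2 genotypes. The list names 10 genes: EcR and usp, which form the receptor, the nuclear receptors Eip78C, Eip75B, Hr3, Hr4 and ftz-f1, and the transcription factors br, Eip74EF and Eip93F. An array feature, which is 1 spot and 1 row of the deposited table, was counted where the probe-to-gene table gave it 1 of these symbols. This rule found 13 features for 7 of the 10 genes, among 8815 named genes that were tested. EcR, usp, Eip78C and Eip93F had 1 feature each, Hr3 had 2, ftz-f1 had 3 and br had 4, and features of a gene were averaged. Eip74EF, Eip75B and Hr4 were matched by no feature and are not analysed here.

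Ecdysone is the steroid hormone of insects, and its active form binds a pair of nuclear receptors, EcR and Usp, on DNA. The hormone-bound pair switches on early genes that encode transcription factors, which act in turn on later genes. Pulses of the hormone time the moults, the end of larval growth and metamorphosis, so that the levels of these regulators in an imaginal disc change with developmental stage.

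Drosophila melanogaster larvae of the third instar carried either tub>dmyc>Gal4, the genotype the labels call the competitor, or tub>cd2>Gal4, the control. In both, the ubiquitously active tubulin promoter drives the named gene, dmyc or cd2, from a removable cassette, and both genotypes were heat shocked to form clones. Total RNA of wing discs was taken at 0, 12, 24 and 48 h, amplified in a pair of linear rounds and hybridised as dmyc against cd2 on 24 two-colour arrays, 6 at each time. Times are read as hours after the heat shock. RNA after 0 h came from discs in which cells with and without the cassette lay side by side, so both kinds entered those samples. How many cells had lost the cassette at 0 h was not measured. No source used here states how many discs or larvae stand behind a sample. A lower ratio can mean fewer cells of a type or less RNA per cell, and these cannot be told apart in bulk tissue.

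Values are log2 ratios. Ratios above 0 are read as likely higher in dmyc discs, on the sole basis that sample titles put dmyc first. The 2 dye orientations ran the same way within each time (r across features 0.84, 0.65, 0.73 and 0.50 at 0, 12, 24 and 48 h), so the arrays share 1 sign convention, which does not say which genotype lies above. Base 2 was assumed for the logarithm, since no source used here states it. Replicates 1 to 3 carried dmyc RNA in Cy5 and replicates 4 to 6 carried it in Cy3. Arrays fell into 12 partner pairs of opposite dye that resembled each other most within a time, namely replicates 1 and 4, 2 and 5, and 3 and 6, or at 24 h 1 and 5, 2 and 6, and 3 and 4. Whether replicates came from separate animals is not stated and partners may share RNA, so p-values over 24 arrays cover the spread between these arrays alone, part of which may be technical, and are on the whole too small (the correlation fitted within pairs was 0.443). For that reason the adjusted p with pairs as a random block is given with the calls. Levels are not part of a ratio table, so the presence of disc markers could not be checked, and dm, the Myc gene itself, is not analysed here.

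None of the 7 genes passed the threshold at any single time. At 0 h all 7 ratios lay below 0, from -0.24 for Hr3 to -0.06 for Eip93F, with a median of -0.15 where the median over all 10661 features was 0.000167. Their limma adjusted p-values ran from 0.0592 for ftz-f1 to 0.67 for br, and 12.1% of all features passed an adjusted p of 0.05 at this time. At an unadjusted p under 0.05 there were 4 of 7 genes at 0 h, against 27.2% of all features. The sign at 0 h was the same for all 7 genes under every scaling tried, while br lay at 0.02 without replicates 3 and 6 of 0 h.

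At 12 h the ratios ran from -0.09 for EcR to 0.16 for Eip78C, and 5 of 7 genes lay above 0. None was called, where 8.29% of all features were, and 1 of 7 had an unadjusted p under 0.05, against 24.9% of all features. At 24 h the lowest ratio was -0.03 for usp and the highest was 0.17 for Eip78C, again with 0 of 7 genes called, beside 8.14% of all features, and 1 of 7 at an unadjusted p under 0.05, beside 24.8%. The range at 48 h went from -0.15 for Hr3 to 0.05 for usp, with 0 of 7 called beside 6.29% of all features, and 0 of 7 at an unadjusted p under 0.05 beside 20.7%. When pairs entered the fit as a random block, 0 of 7 were called at each of the 4 times, beside 4.83%, 1.34%, 1.61% and 1.91% of all features at 0, 12, 24 and 48 h.

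**Figure D1:**
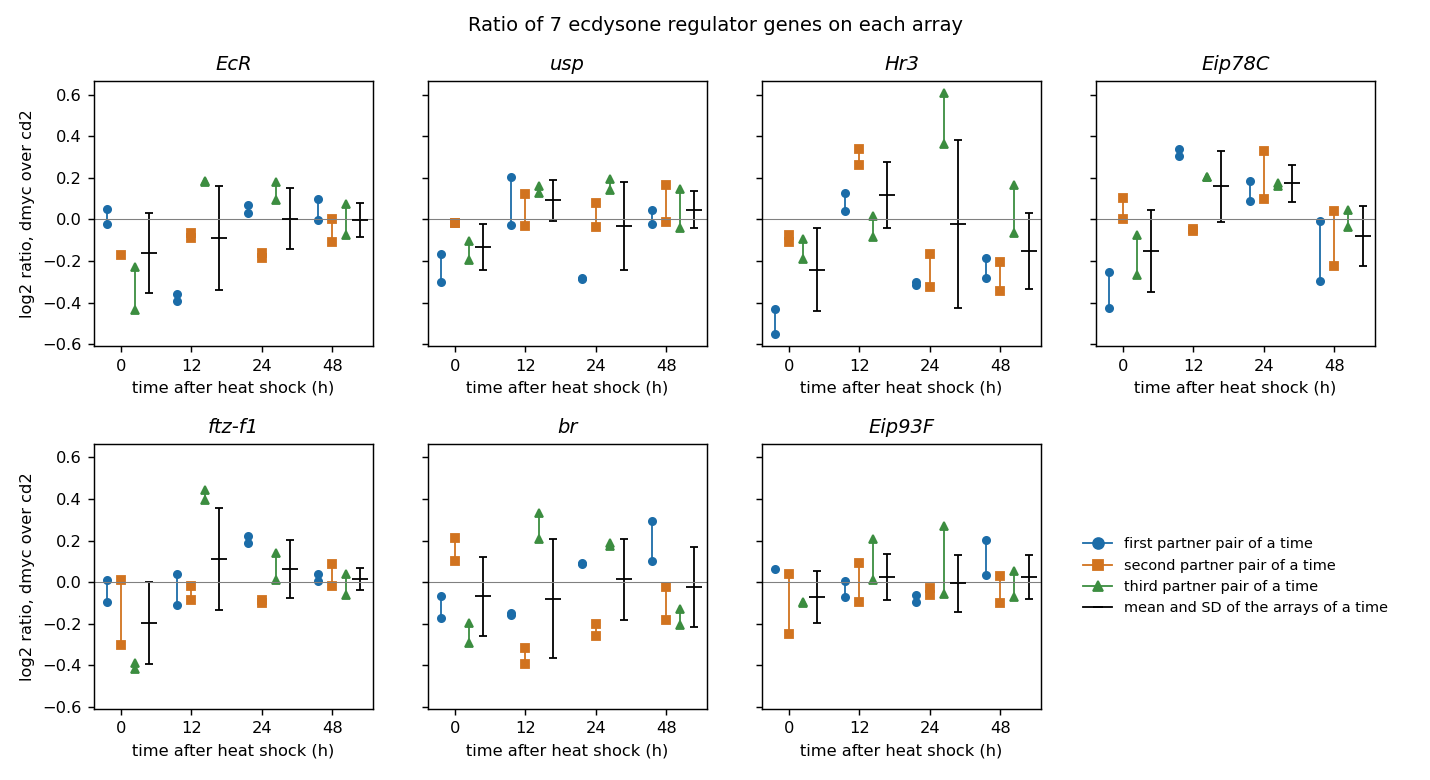
Log2 ratio of dmyc over cd2 (vertical axis) for the 7 measured genes on each array at 0, 12, 24 and 48 h (horizontal axis). Points joined by a line are the dye-swap partners of 1 pair, and the black bar gives the mean and SD of the arrays of a time. Partner arrays of ftz-f1, br and EcR lie close together while the pairs of a time lie apart.

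Between times, members were called only in the differences of 12 h and 24 h from 0 h. From 0 h to 12 h, usp, Eip78C and ftz-f1 rose by 0.23, 0.31 and 0.31, and Hr3, with the highest difference of 0.36, did not pass (adjusted p 0.0677). So 3 of 7 genes were called, all of them higher, where 23.8% of all features were called and 15.1% were called higher. A share of this kind in so short a list is not set apart from the table. From 0 h to 24 h only Eip78C was called, 1 of 7 genes beside 20.3% of all features. From 0 h to 48 h none was called beside 6.33% of all features, with 2 of 7 genes at an unadjusted p under 0.05 where 26.5% of all features were. These differences share the 6 arrays of 0 h, so a deviation of those arrays enters every one of them. Among the later times, the table itself had few calls (0% for 24 h against 12 h, 0.0938% for 48 h against 24 h and 0.075% for 48 h against 12 h) and no member was called, with 0, 1 and 1 of 7 genes at an unadjusted p under 0.05, where 7.18%, 12.5% and 12.8% of all features were.

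**Figure D2:**
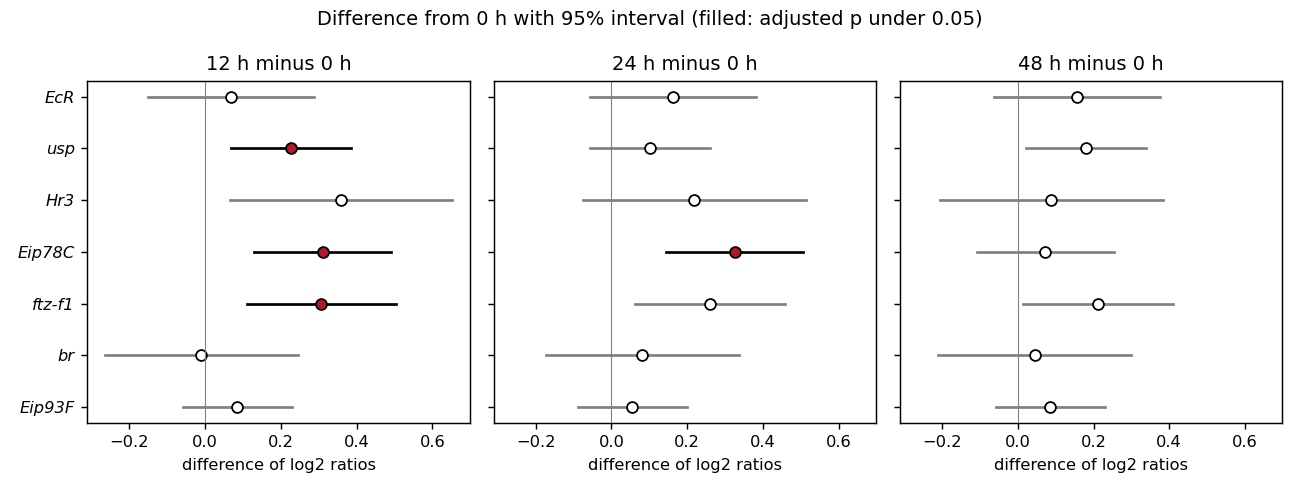
Difference of the log2 ratio from 0 h (horizontal axis) for the 7 genes at 12, 24 and 48 h, with 95% intervals of the limma fit over 24 arrays. Filled points passed an adjusted p of 0.05: usp, Eip78C and ftz-f1 at 12 h, and Eip78C at 24 h.

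EcR, the hormone-binding partner in the receptor, was measured on 5 of 6 arrays at 0 h, with ratios of -0.44, -0.23, -0.17, -0.02 and 0.05. At 12 h the lowest, median and highest ratios were -0.39, -0.08 and 0.18. These arrays split by pair, with replicates 1 and 4 at a mean of -0.38 and replicates 3 and 6 at 0.18. At 24 h the values ran from -0.19 over a median of 0.05 to 0.18, and at 48 h they closed up to between -0.11 and 0.10. The fitted ratios were -0.16 ± 0.08 (SE, n = 5), -0.09 ± 0.07, 0.00 ± 0.07 and 0.00 ± 0.07 (n = 6 each). EcR did not change with time past the threshold, the difference of 12 h from 0 h being 0.07 with a 95% interval from -0.15 to 0.29.

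The partner of EcR in the receptor is usp, the fly counterpart of the vertebrate retinoid X receptor. Its ratios at 0 h had a lowest value of -0.30, a median of -0.14 and a highest of -0.02, all 6 below 0. At 12 h they were -0.03, 0.12 and 0.20, with 4 of 6 arrays above 0. The groups overlapped only between the arrays closest to 0. The mean ratio went from -0.13 ± 0.05 to 0.09 ± 0.05, a rise of 0.23 ± 0.08 (95% interval 0.07 to 0.38, limma adjusted p 0.0352). The random block raised the adjusted p to 0.0969, and averaging partners raised it to 0.197. The call for usp also ended when 0 h replicate 1, 3, 4 or 6 was left out (adjusted p 0.0708, 0.0688, 0.0627 and 0.0619), or 12 h replicate 1, 3 or 6 (0.0824, 0.0761 and 0.0694), with rises between 0.20 and 0.22. At 24 h the pair of replicates 1 and 5 stood at -0.29 while the other 4 arrays lay between -0.04 and 0.20, and at 48 h the ratios ran from -0.04 to 0.16.

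Eip78C encodes an orphan nuclear receptor of the early puffs. Its ratio at 0 h had a lowest value of -0.42, a median of -0.16 and a highest of 0.11. At 12 h the corresponding values were -0.06, 0.20 and 0.34, and at 24 h they were 0.09, 0.17 and 0.33, above 0 on 6 of 6 arrays. By 48 h the ratios lay lower again, with a lowest of -0.30, a median of -0.02 and a highest of 0.05. The arrays of 24 h and 0 h overlapped through 1 array of 0 h, replicate 2.

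Eip78C rose by 0.31 ± 0.09 from 0 h to 12 h (95% interval 0.13 to 0.49, limma adjusted p 0.0130) and by 0.33 ± 0.09 from 0 h to 24 h (0.14 to 0.51, adjusted p 0.0125). It was the only member with a call in the moderated F test over the 4 times (adjusted p 0.0149), in which 19.7% of all features passed. No single array ended these calls. Under the random block the adjusted p was 0.0559 at 12 h, 0.0570 at 24 h and 0.0879 in the F test. With partners averaged it was 0.115, 0.135 and 0.238. The fall from 24 h to 48 h was -0.25 ± 0.09 (95% interval -0.43 to -0.07) and did not pass (adjusted p 0.226). The 12 h rise of Eip78C was 0.22 without replicates 1 and 4 of 0 h (adjusted p 0.0758), 0.23 without replicates 1 and 4 of 12 h (0.0864), 0.30 without replicates 3 and 6 of 0 h (0.0584) and 0.29 without replicates 3 and 6 of 12 h (0.0661). The 24 h rise fell short without the pair 1 and 4 of 0 h (0.23, adjusted p 0.0642) and without the pair 3 and 6 of 0 h (0.32, 0.0609).

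Hr3 encodes a nuclear receptor of the early-late class, known to repress early genes and to activate ftz-f1 in prepupae. Its averaged ratio was below 0 on 6 of 6 arrays at 0 h, with a lowest value of -0.55, a median of -0.15 and a highest of -0.07. At 12 h the corresponding values were -0.08, 0.08 and 0.34, with 5 of 6 arrays above 0. The arrays of these times overlapped by 1 array of 12 h, replicate 6. At 24 h the pair of replicates 3 and 4 stood at 0.61 and 0.36 while the other 4 arrays lay between -0.32 and -0.17. At 48 h the ratio was below 0 on 5 of 6 arrays, with a mean of -0.15 ± 0.10.

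The 24 h pair weighed on the Hr3 result through the pooled spread. The rise from 0 h to 12 h was 0.36 ± 0.14 (95% interval 0.07 to 0.65, limma adjusted p 0.0677) over all arrays. It passed at the same size of 0.36 when 24 h replicate 3 was left out (adjusted p 0.0315), when replicates 3 and 4 of 24 h were (0.00934), or when only the arrays of the compared times were fitted (0.0249). In the random block fit it did not (adjusted p 0.113).

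The 2 features of Hr3 behaved differently. Feature 2771 ran from -0.92 to -0.11 at 0 h and from -0.05 to 0.64 at 12 h, and at 24 h replicates 3 and 4 reached 1.16 and 0.88. Feature 5661 stayed between -0.19 and 0.09 on all 24 arrays and differed by dye (dye coefficient of the fit 0.06 ± 0.01, adjusted p 0.0122). Feature 2771 rose by 0.68 ± 0.27 from 0 h to 12 h (adjusted p 0.0735) and feature 5661 by 0.04 ± 0.04 (adjusted p 0.531). The averaged value of Hr3 is therefore smaller in size than that of its varying feature. The probe-to-gene table gave the features of a gene the same transcript accessions, so features were not assigned to isoforms.

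The nuclear receptor ftz-f1 gives prepupal tissues their competence to respond to the next pulse of hormone. At 0 h its averaged ratio had a lowest value of -0.42, a median of -0.20 and a highest of 0.01. At 12 h the corresponding values were -0.11, 0.01 and 0.44. The median at 12 h was near 0, and replicates 3 and 6 stood alone at 0.44 and 0.40. The same replicate numbers held the lowest arrays of 0 h, -0.39 and -0.42. At 24 h the ratios ran from -0.10 to 0.22, and at 48 h they narrowed to between -0.06 and 0.09.

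The ftz-f1 ratio rose by 0.31 ± 0.10 from 0 h to 12 h (95% interval 0.11 to 0.50, limma adjusted p 0.0227), and the random block left it called (adjusted p 0.0495, where 12.4% of all features passed). The adjusted p was 0.187 with partners averaged and 0.0787 with the compared arrays alone. The call rested on replicates 3 and 6 of both times. Without 0 h replicate 3 the rise was 0.26 (adjusted p 0.0697), without 0 h replicate 6 it was 0.27 (0.0627), without 12 h replicate 3 it was 0.25 (0.0705) and without 12 h replicate 6 it was 0.24 (0.0709). Leaving out replicates 3 and 6 at 0 h and 12 h together, a choice made after seeing the data, left a difference of 0.05 (adjusted p 0.76). Features 5282 and 10363 carried the change, with rises of 0.38 ± 0.13 (adjusted p 0.0414) and 0.53 ± 0.16 (0.0205). The random block ended the call of feature 5282 (adjusted p 0.0688) and left that of feature 10363 (0.0454). They tracked each other over the 24 arrays (Pearson r 0.91). Feature 9056 did not share it. Its difference was -0.03 ± 0.05 (adjusted p 0.697), and it differed by dye (dye coefficient 0.09 ± 0.02, adjusted p 0.00439). Without replicates 3 and 6 at both times, features 5282 and 10363 differed by 0.03 and 0.06. Feature 5282 alone also fell short of the threshold without 0 h replicate 3, 5 or 6 (0.30, 0.40 and 0.33, adjusted p 0.120, 0.0523 and 0.105) or 12 h replicate 3 or 6 (0.31 and 0.28, adjusted p 0.113 and 0.123). Feature 10363 did so without replicate 3 or 6 of 0 h (0.45 and 0.44, adjusted p 0.0638 and 0.0636) or of 12 h (0.45 and 0.40, adjusted p 0.0614 and 0.0634).

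**Figure D3:**
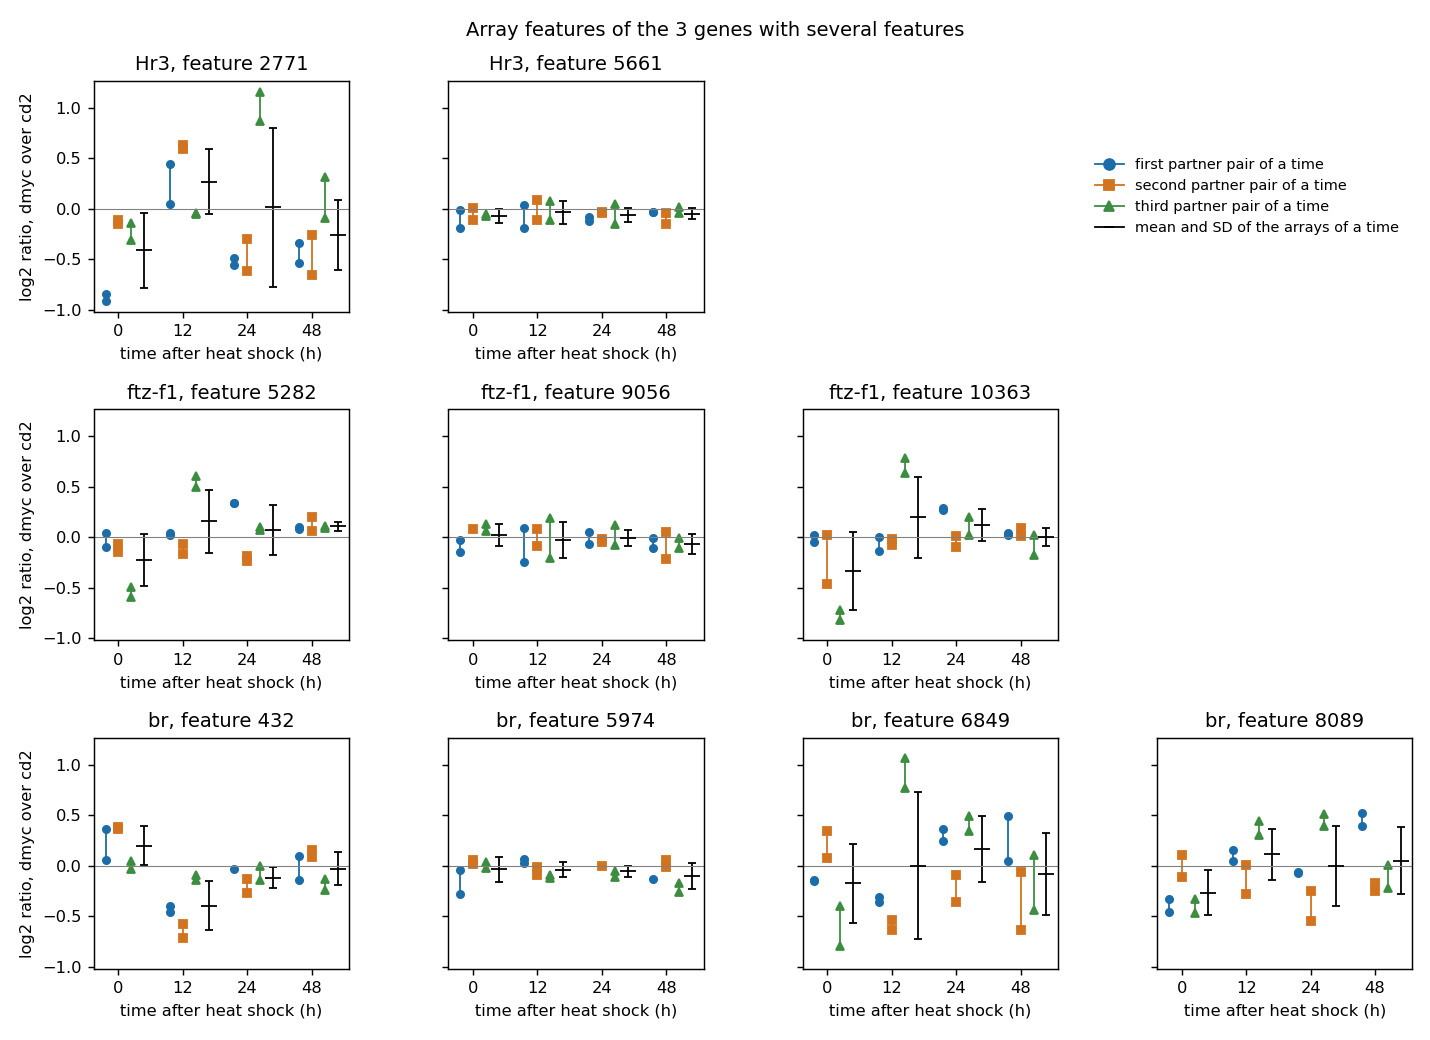
Log2 ratio of dmyc over cd2 (vertical axis) on each array for the 9 features of Hr3, ftz-f1 and br, at 0, 12, 24 and 48 h (horizontal axis), with partners joined and the mean and SD of a time in black. Features of 1 gene differ: Hr3 feature 5661 and ftz-f1 feature 9056 stay near 0, and br feature 432 is low at 12 h where br feature 6849 is spread widely.

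The broad gene, br, encodes a family of BTB zinc finger proteins that direct the switch from larval to pupal development. Its averaged ratio stayed near 0 in the mean, at -0.07 ± 0.09, -0.08 ± 0.09, 0.01 ± 0.09 and -0.02 ± 0.09 at the 4 times, and no difference between times was called. The arrays did not. At 12 h the pairs stood at -0.15, -0.35 and 0.27, and at 24 h at 0.09, -0.23 and 0.18.

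The 4 features of br went separate ways. Feature 432 had ratios at 0 h with a lowest value of -0.03, a median of 0.21 and a highest of 0.38. At 12 h it was below 0 on 6 of 6 arrays, with a lowest of -0.72, a median of -0.43 and a highest of -0.09. The groups of 0 h and 12 h did not overlap. Its ratio at 12 h was -0.39 ± 0.07 (limma adjusted p 0.00380 over 11894 features tested without averaging, of which 8.14% were called at 12 h). It fell by 0.59 ± 0.10 from 0 h to 12 h (adjusted p 0.000621, where 23.7% of features were called), and the F test gave an adjusted p of 0.00398, where 19.6% of features passed. Under the random block these 3 calls had an adjusted p of 0.0199, 0.00337 and 0.0200.

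The fall of br feature 432 at 12 h was called under every alternative but the turned sign of replicates 4 to 6, with values of -0.83 to -0.47 in the rest. Its ratio at 12 h was no longer called with partners averaged (adjusted p 0.182) or with the 12 h arrays alone (0.0927). A difference of -0.32 ± 0.11 between 24 h and 0 h passed narrowly (adjusted p 0.0470) where 20.3% of features were called, and the random block ended it (0.114). It was also lost without 0 h replicate 2, 4 or 5, 12 h replicate 1 or 4, any of the 6 arrays of 24 h, or 48 h replicate 3 or 5 (-0.34 to -0.28, adjusted p 0.0519 to 0.105).

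Features 6849 and 8089 of br resembled each other over the 24 arrays (Pearson r 0.70) and not feature 432 (r 0.24 and -0.12). At 12 h feature 6849 ran from -0.63 to 1.07, with replicates 3 and 6 at 0.77 and 1.07 and the other 4 arrays below -0.30. Its mean there was 0.00 ± 0.19. Feature 8089 went from -0.27 ± 0.12 at 0 h to 0.11 ± 0.12 at 12 h, a difference of 0.38 ± 0.17 that did not pass (adjusted p 0.111). Feature 5974 was measured on too few arrays of 24 h to be fitted, and its ratios lay between -0.28 and 0.07. So the averaged br ratio joins a feature that fell with features that did not pass in either direction.

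Eip93F encodes a factor that in later stages promotes adult differentiation and the death of larval tissue. It had the smallest ratios of the 7 genes at 0 h, -0.06 ± 0.05 (n = 5), and means of 0.02 ± 0.05, -0.01 ± 0.05 and 0.02 ± 0.05 after that. Its lowest value was -0.25 at 0 h and its highest was 0.27 at 24 h. No test on it passed. The 95% interval of its difference between 12 h and 0 h ran from -0.06 to 0.23.

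Within a time, partner arrays lay closer together than the pairs did for most of the members. The SD between pair means of a time was 3.75 times the SD between partners for br, 3.50 times for Hr3, 3.14 times for ftz-f1 and 2.78 times for EcR. It was 1.72 times for usp, 1.34 times for Eip78C and 0.95 times for Eip93F, and 1.19 times for the median feature. The SD between pair means thus exceeded the SD between partners in all members but Eip93F. A pair mean varies less than a single array, so a ratio of 1 does not mark the absence of differences between pairs. Partners were chosen as the arrays most alike across all features, so part of their closeness follows from that choice. The pair of 12 h replicates 3 and 6 was the highest of its time for EcR, usp, ftz-f1, br and Eip93F (0.18, 0.14, 0.42, 0.27 and 0.11). For Hr3 it was the lowest, at -0.03. At 0 h replicates 3 and 6 were the lowest pair for EcR, ftz-f1 and br (-0.33, -0.40 and -0.24), and replicates 1 and 4 the lowest for usp, Hr3 and Eip78C (-0.23, -0.49 and -0.34). The list thus did not move as 1 block.

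**Figure D4:**
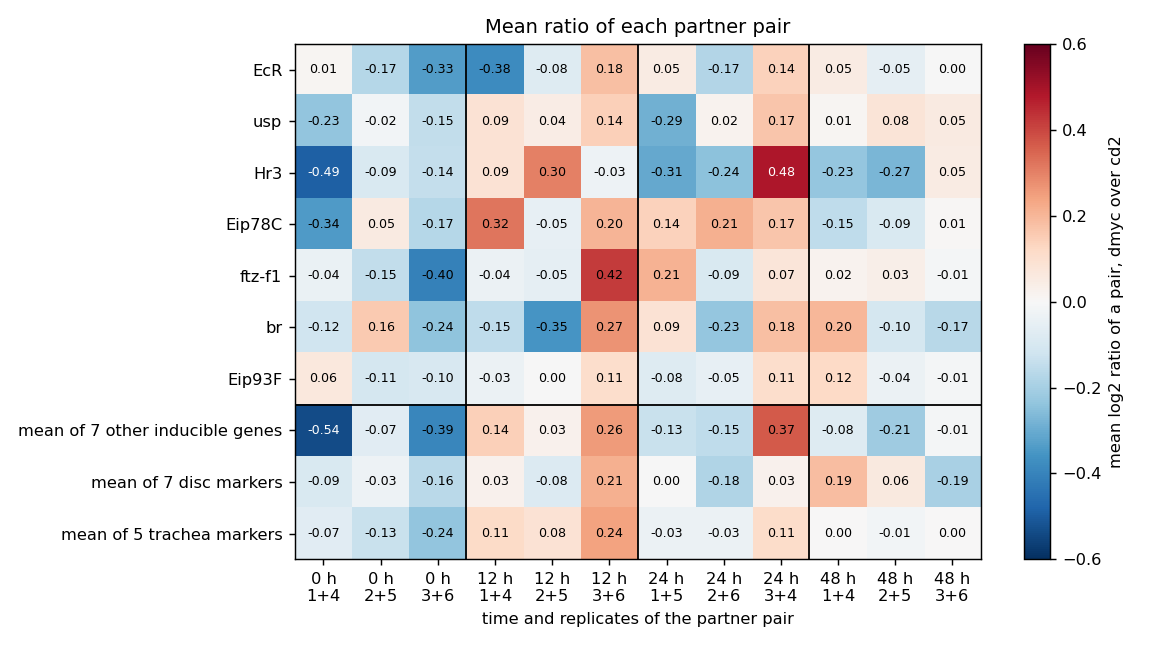
Mean log2 ratio of each of the 12 partner pairs (columns, by time and replicate) for the 7 genes and for the means of 3 gene lists (rows), with the value in each cell and colour from blue (below 0) to red (above 0). The pair of 12 h replicates 3 and 6 is above 0 for 6 of the 7 genes and below 0 for Hr3.

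For the 3 members with a call, the genes of most similar ratio were sought among 6967 named genes with values on all 24 arrays, after the mean of each dye orientation was removed. Nearest to ftz-f1 were spz3 (Pearson r 0.96), CG30389 (0.95) and CG14650 (0.95). Nearest to usp were CG4914 (0.82), CG9593 (0.79) and SP1029 (0.76), and nearest to Eip78C were crc (0.75), Spn43Aa (0.74) and CG12341 (0.74). The arrays behind these values share partners and times, so the correlations are descriptions only. The genes nearest to ftz-f1 had means of -0.14, -0.23 and -0.32 at 0 h, where ftz-f1 had -0.20.

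Genes known to be induced by ecdysone held some larger ratios. Of 12 listed gene symbols outside the members, 7 were measured. At 0 h 3 of 7 were lower and none higher, with a median of -0.26, where 8.24% of all features were called lower. ImpE2, a secreted protein found by its induction in discs, stood at -1.20 ± 0.29 (limma adjusted p 0.00973). ImpL2, a secreted protein that binds insulin-like peptides, had a ratio of -0.30 ± 0.06 (0.00178), and ImpE3 had -0.36 ± 0.10 (0.0181). All 3 lay below 0 on 6 of 6 arrays, and under the random block they had an adjusted p of 0.0203, 0.0138 and 0.0434. At 12 h ImpL2 was higher, 0.28 ± 0.06 (adjusted p 0.00618, and 0.0379 under the random block, above 0 on 6 of 6 arrays), and no other gene of the list was called. The median of the list at 12 h was 0.09, as was that of the members. None was called at 24 h, and at 48 h ImpE1 was lower (-0.23 ± 0.06, adjusted p 0.0153), a call that the random block ended (0.0751). The share of all features called was 8.29%, 8.14% and 6.29% at 12, 24 and 48 h.

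From 0 h to 12 h ImpE2, ImpE3 and ImpL2 rose by 1.78 ± 0.41, 0.50 ± 0.14 and 0.58 ± 0.08 (adjusted p 0.00374, 0.0116 and 9.34e-05), 3 of 7 genes, and none fell, where 15.1% of all features were called higher and 23.8% were called. This is the same count as for the members. Under the random block these 3 had an adjusted p of 0.00762, 0.0260 and 0.000981. Without replicates 3 and 6 of both times, ImpL2 rose by 0.63 (adjusted p 0.00686), while ImpE2 and ImpE3, at 0.78 and 0.57, did not pass (0.245 and 0.0765). At 0 h the call of ImpE2 ended without replicate 3 or 6 (-0.98 and -0.97, adjusted p 0.0643 and 0.0607) and that of ImpE3 without replicate 1, 3 or 4 (-0.37 to -0.30, adjusted p 0.0545 to 0.0624). The 48 h call of ImpE1 ended without replicate 2 or 4 of that time (-0.22 to -0.17, adjusted p 0.0503 to 0.0884). Whether the hormone itself differed between genotypes was not measured.

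Other nuclear receptors, 13 of 14 listed, had 0 higher and 2 lower at 0 h, none at 12 h, 1 higher and 2 lower at 24 h and 1 higher at 48 h, where 12.1%, 8.29%, 8.14% and 6.29% of all features were called (8.24% lower at 0 h). Hr78, an orphan receptor required for metamorphosis, was at -0.45 ± 0.07 at 0 h (adjusted p 0.000748, and 0.00545 under the random block), below 0 on 6 of 6 arrays. The other lower gene, named after its values were seen, was kni (-0.19 ± 0.06, adjusted p 0.0445). That call was lost under the random block (0.113) and without 0 h replicate 1, 2, 3, 4 or 6, 12 h replicate 5, or 48 h replicate 2, 5 or 6 (-0.21 to -0.17, adjusted p 0.0502 to 0.167). From 0 h to 12 h 3 of 13 were called higher and 0 lower, where 15.1% of all features were called higher and 23.8% were called. Of these Hr78 rose by 0.68 ± 0.10 (adjusted p 0.000197, and 0.00181 under the random block). It still rose by 0.45 without replicates 3 and 6 of both times (adjusted p 0.0115). The rises of kni and knrl were lost under the random block (adjusted p 0.0619 and 0.182) and without some single arrays. At 24 h Hr96, a receptor for foreign compounds and lipids, was lower at -0.32 ± 0.07 (adjusted p 0.00820, and 0.0380 under the random block). Hnf4, a receptor that acts on fat and sugar breakdown, was lower at -0.23 ± 0.06 (0.0164), a call that ended under the random block (0.0790) and without 24 h replicate 5 or 6 (-0.22 to -0.19, adjusted p 0.0583 to 0.0611). The knirps-like gene knrl was higher at 24 h and 48 h (0.12 ± 0.04 and 0.15 ± 0.04, adjusted p 0.0469 and 0.0238), and neither call held under the random block (0.212 and 0.155). The 24 h call of knrl was lost without any single array (0.12 to 0.13, adjusted p 0.0507 to 0.127) except 0 h replicate 3 or 4, 12 h replicate 5 or 6, and 48 h replicate 1 or 4, and the 48 h call was lost without 48 h replicate 1, 2 or 5 (0.11 to 0.14, adjusted p 0.0823 to 0.105).

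Cofactors and chaperones of the receptor, 8 of 14 listed, had no call at 0 h or 48 h, beside 12.1% and 6.29% of all features. There were 1 higher and 1 lower at 12 h, and 2 higher and 1 lower at 24 h, beside 8.29% and 8.14% of all features. The histone methyltransferase subunit ash2 was higher at 12 h and 24 h (0.18 ± 0.04 at both, adjusted p 0.0131 and 0.0115). The EcR-binding methyltransferase trr was higher at 24 h (0.12 ± 0.03, adjusted p 0.0301). Lower were E(bx), a subunit of the NURF remodelling complex, at 12 h (-0.16 ± 0.04, adjusted p 0.0318), and rig, a receptor cofactor, at 24 h (-0.18 ± 0.04, adjusted p 0.0136). None of these 5 calls held under the random block (adjusted p 0.0636 to 0.161). Single arrays ended each of them: 12 h replicate 3 for ash2 at 12 h (0.15, adjusted p 0.0640), 24 h replicate 1 or 5 for ash2 at 24 h (0.17, 0.0502 to 0.0539), 24 h replicate 1, 5 or 6 for trr (0.09 to 0.12, 0.0604 to 0.139), 12 h replicate 1, 2, 3 or 5 for E(bx) (-0.17 to -0.13, 0.0582 to 0.115) and 24 h replicate 5 for rig (-0.15, 0.0638).

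Among 7 of 11 listed timing factors, Kr-h1, which relays the juvenile hormone signal that holds back metamorphosis, was lower at 24 h (-0.33 ± 0.09, limma adjusted p 0.0263), and no other was called at the 4 times. That call ended without 24 h replicate 2, 3, 5 or 6 (-0.34 to -0.29, adjusted p 0.0538 to 0.0833) and under the random block (0.0940). Of 7 of 13 genes for the synthesis, import and breakdown of the hormone, sad, a P450 enzyme of ecdysone synthesis, was higher at 0 h (0.15 ± 0.03, adjusted p 0.00542, and 0.0466 under the random block). None of the 7 measured late puff genes was called at the 4 times. For all lists from timing factors to pupal cuticle, the share of all features called was 12.1%, 8.29%, 8.14% and 6.29% at 0, 12, 24 and 48 h. Among 5 larval cuticle genes, Lcp65Aa was higher at 0 h (0.42 ± 0.13, adjusted p 0.0386, lost under the random block at 0.0800 and without 0 h replicate 1, 2, 3 or 4 at 0.30 to 0.48, 0.0577 to 0.15). Of 5 pupal cuticle genes, Cpr49Ah was lower at 24 h and 48 h (-0.29 ± 0.08 and -0.46 ± 0.08, adjusted p 0.0355 and 0.00171). Under the random block the adjusted p was 0.147 and 0.0174, so the 24 h call was lost and the 48 h call held. The 24 h call was also lost without 24 h replicate 3, 4, 5 or 6 (-0.33 to -0.24, 0.0523 to 0.124).

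Some markers of tissues also changed from 0 h to 12 h, in both directions. Of 7 wing disc markers, 1 was higher and 3 were lower at 0 h, and from 0 h to 12 h 3 rose and 1 fell, where 12.1% of all features were called at 0 h and 23.8% between these times. The pouch gene nub stood at -0.26 ± 0.04 at 0 h and at 0.29 ± 0.04 at 12 h (adjusted p 0.000835 and 0.000463, and 0.00897 and 0.00572 under the random block). Of 5 trachea markers, 1 was higher and 3 were lower at 0 h, 2 were higher at 12 h, and 3 rose and 1 fell between them. Of all features 12.1%, 8.29% and 23.8% were called in these comparisons. The gene verm, for a chitin-modifying enzyme, rose by 1.01 ± 0.12 (adjusted p 3.62e-05, and 0.000246 under the random block). The mean over the trachea markers lay between -0.34 and 0.00 on the arrays of 0 h and between 0.07 and 0.28 on those of 12 h. The disc markers as a mean ran from -0.27 to 0.06 at 0 h and from -0.12 to 0.25 at 12 h. Of 3 myoblast markers none was called at the 4 times or from 0 h to 12 h, beside 6.29% to 12.1% and 23.8% of all features. Their median difference between 0 h and 12 h was 0.20, where that of the disc markers was 0.22. Over the pair 1 and 4 the mean of the myoblast markers was -0.33 at 0 h and 0.17 at 12 h. That of Eip78C was -0.34 and 0.32. Over the pair 3 and 6 the myoblast mean was 0.003 and -0.05, where Eip78C had -0.17 and 0.20. Over the pair 2 and 5 it was -0.05 and -0.005, where Eip78C had 0.05 and -0.05. At 24 h the pairs of the myoblast markers stood at -0.06, 0.03 and -0.14, and those of Eip78C at 0.14, 0.21 and 0.17. Over the 24 arrays the mean of the trachea, disc and myoblast markers had a Pearson r of 0.50, 0.18 and 0.54 with Eip78C, 0.64, 0.27 and 0.28 with usp, and 0.73, 0.61 and -0.14 with ftz-f1. Arrays share partners and times, so these are descriptions. The part of disc regions, trachea or myoblasts in the rises of usp, Eip78C and ftz-f1 was not tested. Without replicates 3 and 6 of both times nub and verm still rose, by 0.46 and 0.84 (adjusted p 0.00600 and 0.00841).

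Markers of tissues outside the disc were also followed. The means of 3 fat body markers ran from -1.22 to 1.16 at 0 h and from -0.47 to 1.16 at 12 h. At these times 0 of 3 were called, beside 12.1% and 8.29% of all features. At 48 h they ran from 0.49 to 2.17, above 0 on 6 of 6 arrays, and 1 of 3 was called higher beside 6.29% of all features. That gene, named after its values were seen, was Fbp2 (2.22 ± 0.64, adjusted p 0.0422). The call was lost under the random block (0.0750) and without 12 h replicate 2 or 48 h replicate 1, 2, 4 or 5 (1.78 to 2.42, 0.0506 to 0.168). Of 4 hemocyte markers 2 fell from 0 h to 12 h, where 23.8% of all features were called. NimC1 fell by 0.19 ± 0.07 and eater by 0.27 ± 0.08 (adjusted p 0.0438 and 0.0137), both named after their values were seen. Neither call held under the random block (0.144 and 0.101), and that of NimC1 was lost without any 1 of 0 h replicates 2 to 6 or of 12 h replicates 1, 4, 5 and 6 (-0.19 to -0.13, adjusted p up to 0.114). The 3 salivary glue genes had 0 calls, beside 6.29% to 12.1% of all features at the 4 times. Their mean ran from -2.48 to 0.02 at 24 h and from -3.17 to 0.12 at 48 h. It was lowest in replicates 1 and 5 of 24 h and replicates 1 and 4 of 48 h. In the same 24 h pair usp, Hr3, Eip78C and Eip93F were lowest of that time (-0.29, -0.31, 0.14 and -0.08). There ftz-f1 was highest, at 0.21, and EcR and br lay between the other pairs. In replicates 1 and 4 of 48 h usp and Eip78C were lowest of that time (0.01 and -0.15). EcR, br and Eip93F were highest in that pair (0.05, 0.20 and 0.12), and Hr3 and ftz-f1 lay between the other pairs. The part of these tissues in the ratios of the members was not tested.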

How the data were processed

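The table used was the series' table of processed ratios, 1 value per feature and array, for 24 arrays of wing disc RNA. The deposited values were read as log2 ratios, with the base assumed, and array medians lay between -0.01 and 0.008. No source used here states the scanner, background correction, normalization or filters. Total RNA was amplified linearly before labelling, per the labels' protocols, which can change ratios unequally between transcripts. The signal behind a ratio is unknown, and precision is limited by how many arrays there are.

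Of 12359 features, 169 at inferred control positions were left out, 10289 named 1 gene, 56 named several and 1845 named none. Gene names came from the platform annotation, and 9896 features matched the RefSeq gene table. Arrays were centred on their median, features of a gene were averaged, and 4 or more values of the 6 per time were required, with no value filled in. The 10661 remaining features were fitted with limma 3.58.1 (lmFit and eBayes) in R 4.3.3, with 1 coefficient per time and 1 for dye over all 24 arrays. Each time was tested against 0, as were the 6 differences between times and, by a moderated F test, any change. P-values were adjusted after Benjamini-Hochberg over all features, with a threshold of 0.05. A value after ± is the moderated SE, pooled over times. The fit was tested on simulated data with independent arrays. That test could not show how likeness within partner pairs affects the p-values.

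Samples were grouped by time from their titles. Replicate numbers did not pair samples across times: deviations of same-numbered arrays correlated between -0.54 and 0.50, with 11 of 36 pairs over 0.1. The members and gene lists were chosen with earlier results of these data known. All measured members are named, and from each list up to 4 genes of lowest p among those past the threshold at any time (1 for the disc and trachea markers, and none for the other markers). Named after their values were seen, because their counts were small, were kni, 2 hemocyte genes and Fbp2. Partner pairs were inferred from the data. Alternatives were other scalings, filters and spread models, features not averaged, the sign of replicates 4 to 6 turned, and leaving out each array or pair. The build of any coordinates and the probe sequences were not used here.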

Additional observations from a re-analysis of the deposited data

Results flagged for a closer look

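On 24 h replicate 3, Eip93F stood at 0.27 where the nearest other array of that time was at -0.03, a gap wider than Dixon's limit for 6 arrays. Of 28 groups of arrays examined this was 1, and chance gives about 1 in 20.

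The ratio differed between times, by the test of the difference itself, for usp (0.23 between 12 h and 0 h), Eip78C (0.31 between 12 h and 0 h and 0.33 between 24 h and 0 h) and ftz-f1 (0.31 between 12 h and 0 h). Single features did so for ftz-f1 feature 5282 (0.38) and feature 10363 (0.53) at 12 h, and for br feature 432 at 12 h (-0.59) and 24 h (-0.32), each against 0 h.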

How the results depend on the processing

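The count of members called at 0 h, 0 as reported, was 2 with array weights (EcR and ftz-f1), 1 without pair 1 and 4 of 0 h, pair 2 and 5 of 0 h, pair 3 and 6 of 12 h, pair 1 and 5 of 24 h or pair 3 and 4 of 24 h, and 0 to 1 when single arrays were left out. At 12 h it was 1 without pair 2 and 5 of 12 h. For 12 h against 0 h, 3 as reported, it was 1 with the random block (beside 12.4% of all features) and without pair 1 and 4 of 0 h or of 12 h. It was 0 with partners averaged, with the sign of replicates 4 to 6 turned, and without pair 3 and 6 of 0 h, of 12 h or of both (the last chosen after seeing the data), and 1 to 4 without single arrays. For 24 h against 0 h, 1 as reported, it was 0 with the random block, with partners averaged, with the turned sign and without pair 3 and 6 of 0 h or of both times. It was 2 with array weights and without pair 3 and 6 of 12 h, pair 1 and 5 of 24 h or pair 2 and 6 of 24 h, and 1 to 2 without single arrays. For the F test, 1 as reported, the same 5 settings as for 24 h gave 0. It was 2 with array weights and without pair 1 and 4 of 0 h, pair 2 and 5 of 12 h, pair 1 and 5 of 24 h or pair 2 and 6 of 24 h, 3 without pair 3 and 4 of 24 h, and 1 without each single array. Of 66 uncalled member values, 12 were called and 52 changed sign under at least 1 alternative. The number of all features called also moved with the setting, upward at 0 h with array weights. A member count under an alternative therefore does not by itself set the list apart from the table.

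The replicate block used numbers that were not taken to pair the samples across times. It left 2 members called at 12 h against 0 h and 1 each at 24 h against 0 h and in the F test. It ended the calls of usp (adjusted p 0.0504), ftz-f1 feature 5282 (0.0648), br feature 432 at 24 h against 0 h (0.0766), Lcp65Aa at 0 h (0.0566), NimC1 at 12 h against 0 h (0.0548) and knrl at 24 h (0.0746). Quantile normalization also ended that of usp (0.0512).

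Turning the sign of replicates 4 to 6 reversed the 12 h minus 0 h difference of ftz-f1 (-0.030), of its features 5282 (-0.023) and 10363 (-0.12) and of br feature 432 (0.018), and the 24 h minus 0 h difference of br feature 432 (0.05). It also reversed ImpE2 (0.16) and sad (-0.051) at 0 h, ash2 (-0.00083), ImpL2 (-0.011), nub (-0.051) and verm (-0.039) at 12 h, ash2 (-0.052), Hr96 (0.0077), nub (-0.00083) and trr (-0.043) at 24 h, and ImpE2 (-0.10), nub (-0.027), eater (0.15) and NimC1 (0.11) for 12 h minus 0 h. Without averaging, ftz-f1 feature 9056 differed by -0.032 at 12 h against 0 h and br feature 432 by -0.32 at 24 h against 0 h, opposite in sign to the averaged genes.

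Of 10661 features, 2539 were called at 12 h against 0 h, 1322 with the random block and 343 with partners averaged. At 0 h there were 1287, 515 and 0, and 3110 with array weights. The random block took the counts at 12, 24 and 48 h from 884, 868 and 671 to 143, 172 and 204. The cause of these changes was not tested, and signal over background is unknown.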
